A study of Capra hircus with 3 samples.

Results

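miR-26a, miR-26b and miR-101 were followed through the hair cycle of the cashmere goat, in both arms of their 5 precursors (mir-26a-1, mir-26a-2, mir-26b, mir-101-1 and mir-101-2) of the 336 precursors in the annotation used. A read was counted for an arm when its first 18 nt were those of a sequence that the study lists for that precursor, which gave 8 arms of the 465 in the table. The 3p arm of miR-101 and the 5p arm of miR-26a are each identical in their first 18 nt between the 2 precursors of that miRNA, so the reads of the precursors count together there. The copy of the annotation used here lists no tag for the 5p arm of mir-26b. That arm was therefore taken as the most read 18-nt start that shares the first 8 bases of miR-26a-5p and differs from it at 1 base, and its name rests on this choice. The chosen start had 122624 reads in the 3 libraries and the next start of this kind had 512.

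Small RNA of skin from the side of the body was sequenced in adult Shanbei White cashmere goats, a breed kept for its fine undercoat, in anagen (hair growth), catagen (regression) and telogen (rest). Each stage is 1 library made from the pooled RNA of 10 goats, males and females together, with no treatment or altered gene in any group. Whether the same goats gave skin at each stage is not given in the sources used here. Clean reads numbered 15997828 for anagen, 18111912 for catagen and 27016012 for telogen. No difference has a replicate check with a single library of each stage, so intervals cover counting error only, reads amplified by PCR are not independent molecules, and every comparison is between libraries. Fewer cells of a type and less of the RNA per cell cannot be told apart in these pools.

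A microRNA guides the Argonaute protein to messenger RNAs that pair with its seed, the bases at positions 2 to 8 from its 5′ end, and the target is then repressed. miR-26 and miR-101 are known for repressing EZH2, the methyltransferase of Polycomb repressive complex 2, which places the silencing mark on lysine 27 of histone H3. In skin, EZH2 is known to hold back differentiation genes in epidermal progenitors, and miR-26 and miR-101 reach its messenger RNA through unrelated seeds. EZH2 itself was not measured in these small RNA libraries.

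The main sequences are shown first because the results turn on their starts and ends. They are written 5′ to 3′ with T for U, and capitals mark bases 2 to 8 of each sequence as read.
miR-26a-5p: tTCAAGTAatccaggataggct
miR-26b-5p: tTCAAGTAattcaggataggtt
miR-101-3p, canonical start: tACAGTACtgtgataactgaa
miR-101-3p, start 1 base earlier: gTACAGTActgtgataactgaa
miR-101-3p, canonical start, ending at base 18: tACAGTACtgtgataact
miR-101-3p, start 1 base earlier, ending at base 18: gTACAGTActgtgataact
Counted from 1 at the 5′ end of miR-26a-5p, the 22 bases of miR-26b-5p differ from it by C11T and C21T, so both carry the seed UCAAGUA. miR-101-3p carries the seed ACAGUAC, and its form with the earlier start carries UACAGUA, 1 base off. No other arm of the table had any of these 3 seeds in its most read tag. miR-101-3p positions are counted from the canonical start throughout, so that base 21 is the last base of the canonical sequence shown.

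Both miR-26 arms were lowest in anagen and highest in telogen, and miR-101-3p was highest in anagen and lowest in telogen when reads of all lengths were counted. miR-26a-5p had 3391 TPM (reads in each 1000000 clean reads) in anagen, compared with 4382 in catagen and 5406 in telogen, from 54252, 79361 and 146050 reads. miR-26b-5p had 1261 TPM in anagen against 2102 in catagen and 2383 in telogen, from 20173, 38064 and 64387 reads. Both miR-26 arms thus stepped up from stage to stage, with the larger step of miR-26b-5p between anagen and catagen. miR-101-3p had 4759 TPM in anagen, compared with 3562 in catagen and 2763 in telogen, from 76126, 64518 and 74654 reads. Counted from reads of 21 nt or longer alone, miR-101-3p had 2486, 2870 and 1923 TPM and was highest in catagen, and in anagen it lay below miR-26a-5p at 3185 TPM. The counting intervals of the 3 stages did not overlap for any of the 3 arms. Among the 465 arms of the table, miR-101-3p ranked 6th in anagen, 13th in catagen and 11th in telogen, and miR-26a-5p ranked 11th, 10th and 7th. The shortened annotation lacks the main arms of some abundant miRNAs, so these ranks hold within the table only. For example, let-7g and miR-143 had 2 and 4504 reads in anagen here, while the paper counts both above miR-101 in that stage.

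**Figure D1:**
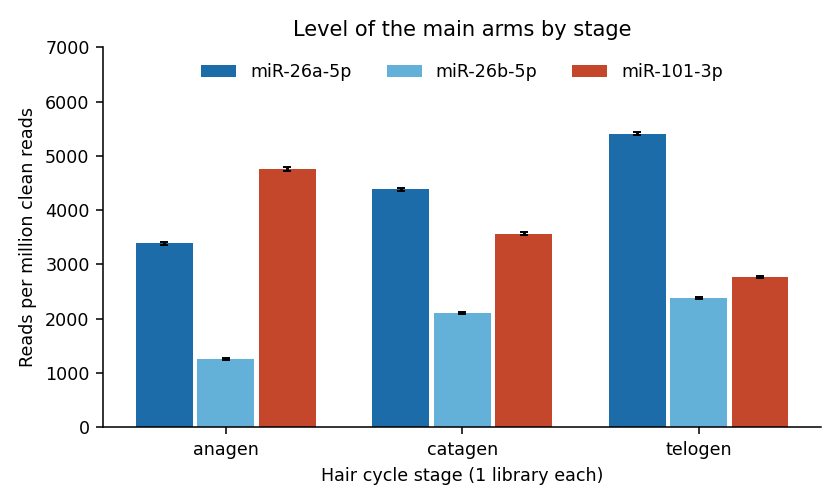
Level of miR-26a-5p, miR-26b-5p and miR-101-3p in TPM (y axis) in the anagen, catagen and telogen libraries (x axis, 1 library each), with exact 95% Poisson intervals as error bars. With reads of all lengths counted, miR-101-3p is the highest of the 3 in anagen at 4759, and miR-26a-5p is the highest in telogen at 5406, while with reads of 21 nt or longer alone miR-26a-5p is the higher of these in anagen too.

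With reads scaled to clean reads, none of these 3 arms passed the call rule used here, an absolute log2 ratio above 1 with a p under 0.01 in the exact Audic-Claverie test that the study applied. In anagen over catagen, 0 of the 3 were called, where the rule called 27.6% of the 290 arms with at least 1 TPM in 1 of the 2 libraries. It called 0 of the 3 in anagen over telogen, against 24.3% of 288 arms, and 0 of the 3 in catagen over telogen, against 12.8% of 289 arms. miR-26b-5p in anagen over telogen lay near the limit and passed it at -1.23 when scaled to miRNA reads and at -1.01 with its most read tag alone. By p alone, all 3 arms were called in each pair, as were 61.0%, 62.8% and 50.2% of the arms tested in the same order of pairs. The log2 ratio of miR-26a-5p was -0.37 in anagen over catagen (95% interval -0.39 to -0.35), -0.67 in anagen over telogen (-0.69 to -0.66) and -0.30 in catagen over telogen (-0.32 to -0.29). That of miR-26b-5p was -0.74 (-0.76 to -0.71), -0.92 (-0.94 to -0.90) and -0.18 (-0.20 to -0.16) in the same order. That of miR-101-3p was 0.42 (0.40 to 0.43), 0.78 (0.77 to 0.80) and 0.37 (0.35 to 0.38). These ratios share libraries, since each stage enters 2 of the 3 pairs.

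The median log2 ratio of all arms tested was -0.44 in anagen over catagen, -0.32 in anagen over telogen and 0.10 in catagen over telogen. Relative to these medians, in the same order of pairs, the log2 ratio of miR-26a-5p was 0.07, -0.35 and -0.41 and that of miR-26b-5p was -0.30, -0.60 and -0.28. Relative to them, miR-101-3p was at 0.85, 1.10 and 0.26, above the median in all 3 pairs. In anagen over telogen, 94.9% of the 59 arms with at least 1000 reads in each library had a lower ratio than miR-101-3p, 18.6% a lower one than miR-26a-5p, and 8.47% a lower one than miR-26b-5p. The ratio of miR-26a-5p in anagen over catagen was therefore close to the median arm of the table, while miR-101-3p stood well toward the upper end of the arms. Main arms of some abundant miRNAs, let-7g and miR-143 among them, are missing from the table, so these medians and shares may not hold for all skin miRNAs.

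**Figure D2:**
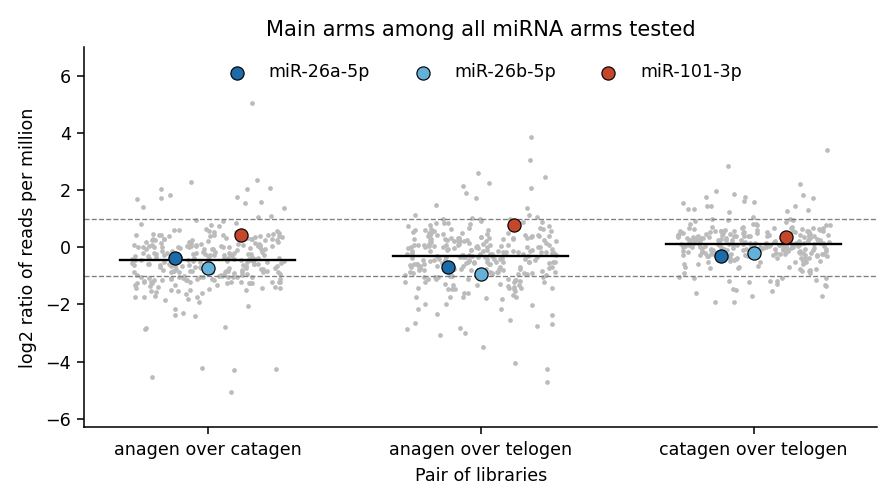
log2 ratio of TPM (y axis) for each pair of libraries (x axis), with a grey point for every miRNA arm tested, coloured points for the 3 main arms, a black line at the median of all arms and dashed lines at 1 and -1. All 3 main arms lie within the dashed lines in every pair, with miR-101-3p at 0.78 and miR-26b-5p at -0.92 in anagen over telogen.

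Ratios of 2 arms within a library do not depend on the scaling. miR-26a-5p had 0.713 reads for each read of miR-101-3p in the anagen library (95% interval 0.705 to 0.721), 1.23 in that of catagen (1.22 to 1.24) and 1.96 in that of telogen (1.94 to 1.97). With miR-26b-5p added, the miR-26 seed had 0.978 reads for each read of miR-101-3p in anagen against 1.82 in catagen and 2.82 in telogen. These values rest in part on the short reads of miR-101-3p. With reads of 21 nt or longer alone, miR-26a-5p had 1.28, 1.5 and 2.73 reads for each read of miR-101-3p in anagen, catagen and telogen, and the 2 miR-26 arms together had 1.76, 2.23 and 3.95. The ratio was lowest in anagen and highest in telogen under both counts, and the 2 families were nearly level in anagen with short reads included. Within the miR-26 family the balance moved less, with 2.69 reads of miR-26a-5p for each of miR-26b-5p in anagen against 2.08 in catagen and 2.27 in telogen. Ligation and amplification differ between sequences, so a ratio of reads is not a ratio of molecules. Its change between libraries is free of the scaling, but whether ligation, amplification and size selection acted alike in all 3 libraries was not tested.

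The miR-101-3p reads began at 2 sites. The canonical start held 58.1% of its reads in anagen against 56.4% in catagen and 54.9% in telogen, and the start 1 base earlier held 41.7%, 43.4% and 44.9%. Starts other than the most frequent one thus held far more of the miR-101-3p reads than in the median arm. The medians of the 56 other arms with at least 1000 reads in each library were 0.522%, 0.449% and 0.419%. The highest share among these other arms was 87.1%, 75.2% and 80.5%. miR-101-3p ranked 6th, 6th and 4th of 59 in the share of other starts. The miR-26 arms began at 1 site, with other starts at 0.805%, 0.348% and 0.268% of miR-26a-5p reads and 0.360%, 0.136% and 0.143% of miR-26b-5p reads in anagen, catagen and telogen. The seed UACAGUA of the earlier start was therefore carried by 1986 TPM in anagen, compared with 1547 in catagen and 1241 in telogen. The seed ACAGUAC of the canonical start was carried by 2764, 2009 and 1518 TPM. Reads of the earlier start ending at base 18 were at 762, 65.2 and 274 TPM in the same order of stages. Those ending at base 21 were at 521, 668 and 429 TPM, highest in catagen. The order of anagen and catagen for the seed UACAGUA therefore depended on the reads ending at base 18. Reads of the canonical start ending at base 21 were at 1004, 888 and 719 TPM, highest in anagen.

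Many miR-101-3p reads in anagen were shorter than 21 nt, the length of the canonical sequence. The share under 21 nt was 47.7% in anagen (95% Wilson interval 47.4 to 48.1) against 19.4% in catagen (19.1 to 19.7) and 30.4% in telogen (30.1 to 30.7). Median shares of the 56 other arms were 6.28%, 1.43% and 2.69%, so they ran in the same order of stages at a lower level. miR-101-3p ranked 4th, 3rd and 4th of 59, and its gap of 28.3 percentage points between anagen and catagen also ranked 4th, beside a median gap of 3.81 points in the other arms. The miR-26 arms stayed near those medians, at 6.07%, 1.73% and 2.77% for miR-26a-5p and 4.98%, 0.673% and 2.09% for miR-26b-5p. The most frequent length was 21 nt for miR-101-3p and 22 nt for both miR-26 arms, so the limit of 21 nt lies closer to the usual length of miR-101-3p. In catagen, 10087 of the 12537 short reads of miR-101-3p were 20 nt long. Ranks among the arms with a limit of 20 nt were not computed. Among reads of high quality, those removed as under 18 nt were 3.38% in anagen, compared with 2.66% in catagen and 0.57% in telogen, which is a different order of stages. The part of RNA breakdown or of size selection in these shares was not tested.

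**Figure D3:**
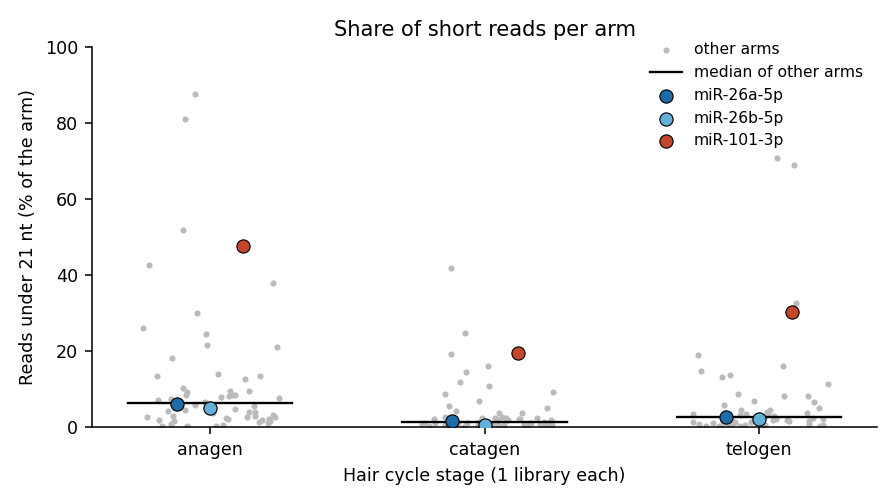
Share of the reads of an arm that are under 21 nt, in percent (y axis), in the anagen, catagen and telogen libraries (x axis), for the 59 arms with at least 1000 reads in each library. Grey points are the 56 other arms, black lines their medians, and miR-101-3p lies at 47.7%, 19.4% and 30.4% while both miR-26 arms lie near the medians.

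Most of the stage difference in short reads came from a single end, at base 18, which is the earliest end that reads with the canonical start could show after the removal of reads under 18 nt. Reads of both starts that ended at base 18 numbered 22278 in anagen against 2014 in catagen and 10643 in telogen, or 29.3%, 3.12% and 14.3% of the arm. Their level was 1393 TPM in anagen, compared with 111 in catagen and 394 in telogen, a log2 ratio of 3.65 in anagen over catagen (95% interval 3.58 to 3.71) and 1.82 in anagen over telogen (1.79 to 1.86). Reads that ended at base 20 or later were at 3025, 3362 and 2185 TPM, with a log2 ratio of -0.15 in anagen over catagen. Without the reads that ended at base 18, miR-101-3p had 3366 TPM in anagen against 3451 in catagen and 2369 in telogen. The order of anagen and catagen for miR-101-3p therefore depended on the short forms, and telogen was lowest either way. Reads of 21 nt or longer gave the same picture, at 2486 TPM in anagen, compared with 2870 in catagen and 1923 in telogen.

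The shares of the 2 starts of miR-101-3p differed by the end of the read. Of the reads that ended at base 18, the earlier start held 54.8% in anagen against 58.6% in catagen and 69.5% in telogen. At base 21 it held 34.2%, 43.0% and 37.4%. Its share was thus higher at base 18 than at base 21 in each library, and the intervals of the 2 shares did not overlap. At the same end a read of the earlier start is the longer, so these shares do not give its share among reads under 21 nt. Among reads that ended with the listed base 22, the earlier start was almost absent, with 5 reads against 1102 of the canonical start in anagen, 8 against 1510 in catagen and 8 against 1384 in telogen. Reads of the earlier start that ended at position 22 with any base did exist, and in anagen 90.7% of them carried G22A (the listed base first, then the base read), with 94.8% in catagen and 92.5% in telogen. Among reads of the canonical start that ended at base 22, those with G22A made up 53.8%, 57.0% and 60.9%, and those with the listed base 19.0%, 18.3% and 17.9%. These G22A reads of the canonical start, 3121, 4696 and 4712 in number, are counted again below as reads with 1 adenine added after base 21.

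**Figure D4:**
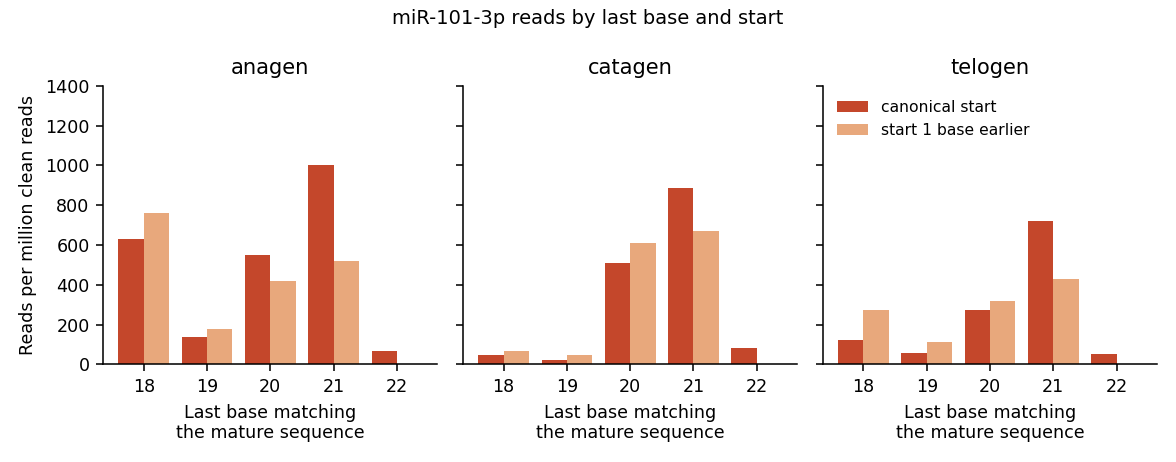
Level of miR-101-3p reads that match the mature sequence to their end, in TPM (y axis), by the last base (x axis, counted from the canonical start), in the anagen, catagen and telogen libraries, with dark bars for the canonical start and light bars for the start 1 base earlier. Reads ending at base 18 sum to 1393 in anagen against 111 in catagen and 394 in telogen, while at base 22 the light bars are near 0.

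The 5p arms of miR-26 ended mainly at base 22, and a part of their reads carried bases that the listed sequence does not hold. Terminal transferases are known to add uridine or adenine to the 3′ end of mature microRNAs, and miR-26a is a known target of uridine addition. Of the miR-26a-5p reads, 59.7% in anagen, compared with 59.0% in catagen and 60.6% in telogen ended at base 22 with the listed bases. Added uridine was found on 11.4%, 16.2% and 12.0% of its reads, and added adenine on 12.1%, 12.6% and 12.9%. Uridine was thus highest in catagen while adenine hardly moved. The catagen excess lay in a single added uridine after base 22, at 5.59% in anagen against 10.2% in catagen and 6.83% in telogen, whereas 2 added uridines stood at 5.20%, 5.29% and 4.58%. These 2 forms, with their seeds in capitals, were the following.
miR-26a-5p with 1 uridine: tTCAAGTAatccaggataggctt
miR-26a-5p with 2 uridines: tTCAAGTAatccaggataggcttt

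For miR-26b-5p the uridine shares of the 3 libraries lay closer together. The arm ended at base 22 in 68.5%, 74.0% and 72.9% of reads, and further uridine followed in 6.99%, 7.38% and 7.66%. The bases that follow base 22 in its precursor are not in the annotation used here, so for miR-26b-5p an added base cannot be told apart from a templated one. For miR-101-3p reads with the canonical start, added adenine was found on 7.47% in anagen, against 13.8% in catagen and 12.4% in telogen, and added uridine was 3.03%, 4.29% and 3.18%. In TPM, the miR-101-3p reads with added adenine were at 206, 278 and 188.

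**Figure D5:**
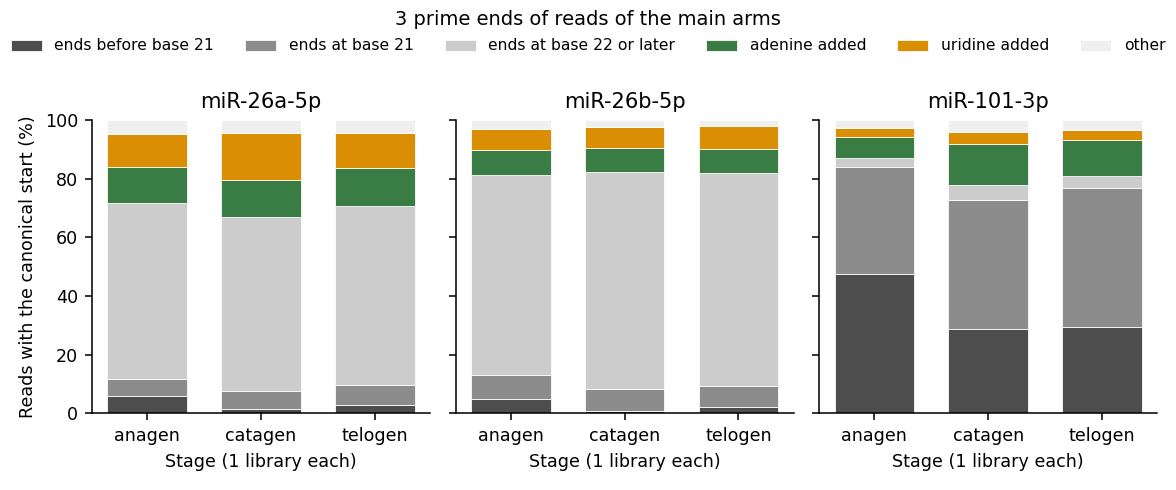
Share of reads with the canonical start, in percent (y axis), by class of 3′ end for miR-26a-5p, miR-26b-5p and miR-101-3p (panels) in the anagen, catagen and telogen libraries (x axis). Uridine is added to 16.2% of miR-26a-5p reads in catagen against 11.4% in anagen and 12.0% in telogen, and the dark class of ends before base 21 is large for miR-101-3p alone of the 3.

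The opposite arms were barely present. The most read tag of each was as follows, with bases 2 to 8 in capitals.
miR-26a-1-3p: cCTATTCTcggttacttgcac
miR-26a-2-3p: cCTATTCTtgattacttgtttc
miR-26b-3p: cCTGTTCTccattacttggctc
miR-101-1-5p: tCAGTTATcacagtgctgatgc
miR-101-2-5p: cGGTTATCatggtaccgatgctg
These arms are the ones that tell the precursors of a miRNA apart. miR-26a-1-3p had 6, 4 and 13 reads in anagen, catagen and telogen, and miR-26a-2-3p had 7, 2 and 18. miR-26b-3p had 4, 5 and 9 reads, and miR-101-1-5p had 7, 11 and 18. miR-101-2-5p had 0 reads in anagen, which allows up to 0.188 TPM at 3 reads, and 2 in each of the other libraries. All 5 arms were under 1 TPM in every library and were not tested. Over the 3 libraries there were 5593 reads of miR-26a-5p for each read of its opposite arms, 6812 for miR-26b-5p and 5382 for miR-101-3p.

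Both mir-26a precursors were thus read at a like low count through their 3p arms, and for miR-101 the arm of mir-101-1 had more reads than that of mir-101-2. The rare long reads of miR-101-3p ran the other way. The listed tags differ from mir-101-1 to mir-101-2 by G23A, and reads with the base of mir-101-1 numbered 7, 7 and 13 against 228, 368 and 362 with that of mir-101-2. The base of mir-101-2 may also be an added adenine, and uridine, which neither precursor lists, had 150, 156 and 173 reads, so the share of each precursor cannot be read from this base. By the RefSeq gene table of goat (assembly ARS1.2), the entry MIR26A lies inside CTDSPL and MIR26B inside CTDSP1, which encode related small phosphatases of RNA polymerase II, and the entry MIR101 lies in no protein-coding gene. Which precursor of miR-26a or of miR-101 each entry stands for was not settled, so these places do not cover both precursors of either.

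The arms whose pattern over the 3 stages was most like that of each main arm were named by the distance between log2 TPM values centred over the stages, among 56 other arms with at least 1000 reads in each library. For miR-26a-5p they were miR-193b at a distance of 0.08, miR-2904 at 0.10 and miR-532 at 0.13, beside a median of 0.59 over the other arms. miR-26b-5p was closest to miR-106b at 0.09, miR-205 at 0.10 and miR-10a at 0.12, closer than to miR-26a-5p at 0.26. miR-205, a microRNA of skin epithelium, had 990 TPM in anagen, compared with 1790 in catagen and 1863 in telogen. For miR-101-3p they were miR-503 at 0.05, let-7f at 0.15 and miR-221 at 0.17, and miR-503 had 196, 148 and 110 TPM. With 3 stages these distances describe order and size and carry no test.

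Other microRNAs known to repress EZH2 messenger RNA were miR-214, miR-138, miR-124, miR-217 and miR-98, of which 3 had a sequence in the annotation used. miR-214 had 10, 27 and 44 reads in anagen, catagen and telogen, miR-217 had 18, 32 and 37, and the 2 listed arms of miR-138 had 20, 18 and 17 and 5, 7 and 11. The listed arms of this group summed to 3.31, 4.64 and 4.03 TPM, far below the main arms of miR-26 and miR-101. For each of these microRNAs only the arm that the shortened annotation lists was counted, so another arm of the same precursor may hold more reads.

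The libraries also differed in microRNAs of other tissues. The muscle microRNAs miR-133a, miR-133b, miR-1 and miR-206 summed to 4117 TPM in anagen against 78789 in catagen and 21405 in telogen. The 3 of red blood cells, namely miR-451, miR-144 and miR-486, summed to 1312, 2137 and 878 TPM. Of the epithelial microRNAs miR-203, miR-205, miR-200b, miR-200c and miR-183, all but miR-203 had a sequence, and these summed to 1197, 1944 and 2018 TPM, in the order of stages of miR-26a-5p and miR-26b-5p. That sum was mostly miR-205, and its members did not share 1 order of stages. The main arm of miR-183 had 158.0, 107.9 and 100.9 TPM, in the order of miR-101-3p with all reads counted, miR-200b had 33.3, 41.0 and 40.1 TPM, and miR-200c was under 1 TPM in every library. The red cell sum had the order of stages of miR-101-3p reads of 21 nt or longer, as did miR-451 at 863, 1266 and 431 TPM. miR-486, at 335, 779 and 438 TPM, and the main arm of miR-144, at 104, 76.4 and 7.18 TPM, did not share that order. The muscle sum had the order of none of the main arms. The part of cell composition in the levels of miR-26 and miR-101 was not tested.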

How the data were processed

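Small RNA libraries of goat skin were sequenced for anagen, catagen and telogen (1 library of 10 pooled goats each). The authors removed reads of low quality, with adapter faults, with poly(A) or under 18 nt and collapsed the rest into tags. The deposited count of a tag is a number of reads, not normalised, and the deposited filtering record gives counts and the percent of high-quality reads. No alignment enters these values. Gel selection took RNA of about miRNA size.

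Tags were assigned by their first 18 nt to the tags of the authors' annotation (sequences only, 1999 rows per library of 2841, 2901 and 3214), and miR-26b-5p was added as described above because no reference table of mature miRNAs was used here. Starts of 1 miRNA no more than 4 nt apart were joined. The shortened annotation leaves out the main arms of some abundant miRNAs, so medians, ranks and shares over the arms of the table hold within it. Reads were scaled to clean reads (TPM). Log2 ratios have exact Clopper-Pearson intervals, shares Wilson intervals, at 95%. The exact two-sided Audic-Claverie test was run on the reads of 2 libraries for arms with at least 1 TPM in 1 of them. It compares libraries, not stages. The study gives this test and the minimum of 1 TPM, and joining p to a limit on the log2 ratio was a choice made here. A model with a spread between replicates needs more libraries than these. Scripts were checked on simulated tags and counts. The members and lists were chosen with earlier results of these data known. The text names all members, their most read tags, the 3 most alike arms and the listed EZH2 regulators and markers. miR-203, miR-122, miR-124 and miR-98 had no sequence in the annotation used. Python 3.11.15, scipy 1.17.1, R 4.3.3 and edgeR 4.0.16 were used.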

Additional observations from a re-analysis of the deposited data

How the results depend on the processing

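No paired analysis was possible because each stage is 1 pooled library. Of the 54 recomputed log2 ratios of the 3 main arms, 50 kept their direction and their side of the limit. miR-101-3p in anagen over catagen reversed to -0.21 with tags of 21 nt or longer and to -0.093 with the first 20 nt shared, both of which leave out the reads ending at base 18. miR-26b-5p in anagen over telogen passed the limit at -1.23 when scaled to miRNA reads and at -1.01 with its most read tag alone. Size factors from the median of ratios shift every log2 ratio by 0.31 in anagen over catagen, 0.15 in anagen over telogen and -0.16 in catagen over telogen, which puts miR-26a-5p at -0.06 in anagen over catagen. Scaling to miRNA reads shifts them by 0.00, -0.31 and -0.31, which puts miR-101-3p at 0.05 in catagen over telogen.

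With a limit of 20 nt, the share of short reads in anagen, catagen and telogen was 32.4%, 3.80% and 16.3% for miR-101-3p, 3.44%, 0.207% and 0.755% for miR-26a-5p and 1.47%, 0.0788% and 0.379% for miR-26b-5p. Counted in distinct tags in place of reads, it was 9.49%, 7.24% and 7.09% for miR-101-3p, 7.29%, 7.04% and 5.40% for miR-26a-5p and 9.57%, 7.45% and 6.09% for miR-26b-5p. In distinct tags, the earlier start of miR-101-3p held 28.5%, 35.9% and 32.5%, the end at base 18 held 0.633%, 0.690% and 0.489%, and added uridine on miR-26a-5p 3.12%, 3.02% and 2.16%. Distinct tags weigh every tag alike, whatever its reads. The end at base 18 is 2 tags by definition, and added uridine on miR-26a-5p was 6 tags in each library. Their shares in distinct tags therefore follow the total number of tags and are no check on the shares of reads. Leaving out tags read a single time, or counting any start that holds bases 3 to 18, moved no share beyond its interval.

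The number of arms called was 80 (15 higher in anagen) for anagen over catagen, 70 (14 higher in anagen) for anagen over telogen and 37 (20 higher in catagen) for the third pair. With at least 100 reads in both libraries it was 27 (3 higher), 20 (7) and 14 (11), of 150, 151 and 168 tested. Median-of-ratios size factors gave 53 (21 higher), 67 (21) and 38 (18), and scaling to miRNA reads 77 (15), 99 (10) and 45 (16). By p under 0.01 alone, chosen after the data were seen, it was 177 (41 higher), 181 (51) and 145 (87). edgeR's exact test at an adjusted p under 0.05 gave 132, 124 and 65 when the biological coefficient of variation was set to 0.1, and 5, 1 and 0 at 0.4, where 21, 28 and 8 had an unadjusted p under 0.05. Of the 3 main arms it called none at 0.4 in any pair. At 0.1 it called miR-26b-5p in anagen over catagen and all 3 main arms in anagen over telogen. Using a reference table of mature miRNAs in place of the authors' annotation was not run, since none was used here.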
